A study of Mus musculus with 12 samples.

Results

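Microglia of 24-month-old female mice were profiled by ATAC-seq (assay for transposase-accessible chromatin, in which a transposase inserts sequencing adapters into open DNA) after an injection of lipopolysaccharide (LPS, a component of the outer membrane of gram-negative bacteria) or of PBS as the vehicle. The LPS response at this age was taken from 4 of the 12 libraries of the series, the 2 titled 24month,LPS and the 2 titled 24month,PBS. Overlapping peaks of the 4 deposited lists (by 1 bp or more) were joined, which gave 44835 regions. A region was called gained if both LPS lists and neither PBS list held it, and lost in the reverse case. The other 8 libraries, 2 per treatment at 3 and at 14 months, served to look up the 24-month regions at younger ages and entered a fit over all 12 libraries, where they share in the estimate of the spread.

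All groups were female C57BL/6J mice with no transgene, and the groups used here differed only in age and in LPS or PBS, both given intraperitoneally. Each library was a pool of microglia from 2 to 3 mice, so n counts pools and a p-value measures only the spread between pools. The brains were dissociated with papain and microglia were sorted as CD11b+ CD45low cells. The ATAC-seq protocol in the labels starts from nuclei of frozen tissue and does not mention the sort. The interval between injection and collection is left out because the labels and the methods do not give the same one.

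LPS is sensed by Toll-like receptor 4 (TLR4), which through the adaptor MyD88 and a kinase cascade activates the transcription factors NF-κB and AP-1 and, through secreted cytokines and interferon, the STAT factors. These factors bind enhancers, many of which are already held open in microglia by the lineage factor PU.1, and induce both inflammatory genes and the inhibitors that end the response, such as SOCS3, IκBα and A20. In ATAC-seq, an enhancer that is newly bound appears as a new peak or as a larger one.

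The sequences of 10 regions that carry the results are shown first, each as the 201 bases centred on the summit of the merged region, on the plus strand of GRCm38 and in lower case, with motif matches in capitals. Matches to AP-1 (TGANTCA), STAT (TTCNNNGAA), C/EBP (TTGCNNAA), PU.1 (AGAGGAAGT) and the NF-κB site are marked, on either strand. The first 5 were gained: they stand for the strongest gained regions (Rnf157, Cebpd), for inhibitors and regulators of the response (Ptpn1, Runx1) and for a gained promoter (Mt2).
Rnf157 chr11:116377459-116377659: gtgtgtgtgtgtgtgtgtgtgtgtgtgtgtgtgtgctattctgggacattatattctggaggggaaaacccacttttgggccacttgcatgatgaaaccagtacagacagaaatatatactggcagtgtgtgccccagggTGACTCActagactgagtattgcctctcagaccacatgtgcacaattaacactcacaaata
Cebpd chr16:15948264-15948464: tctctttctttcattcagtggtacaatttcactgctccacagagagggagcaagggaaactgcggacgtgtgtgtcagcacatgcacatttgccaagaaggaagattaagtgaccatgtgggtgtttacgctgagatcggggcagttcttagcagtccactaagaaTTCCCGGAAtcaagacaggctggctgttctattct
Ptpn1 chr2:167951336-167951536: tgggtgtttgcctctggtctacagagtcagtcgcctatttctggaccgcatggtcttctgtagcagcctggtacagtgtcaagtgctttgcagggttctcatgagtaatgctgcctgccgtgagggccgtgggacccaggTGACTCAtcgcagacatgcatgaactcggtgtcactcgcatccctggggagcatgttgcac
Runx1 chr16:93026318-93026518: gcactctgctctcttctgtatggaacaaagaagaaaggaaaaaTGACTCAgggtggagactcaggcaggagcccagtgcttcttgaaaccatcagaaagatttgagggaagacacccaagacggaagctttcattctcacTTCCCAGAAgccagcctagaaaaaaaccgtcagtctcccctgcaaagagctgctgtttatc
Mt2 chr8:94171685-94171885: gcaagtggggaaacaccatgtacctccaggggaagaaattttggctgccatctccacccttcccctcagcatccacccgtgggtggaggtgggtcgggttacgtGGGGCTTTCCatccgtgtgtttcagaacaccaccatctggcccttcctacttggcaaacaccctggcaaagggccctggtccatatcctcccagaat
Rnf157 and Ptpn1 each held an AP-1 match, Cebpd a STAT match, Runx1 both, and Mt2 an NF-κB match. The next 2 stood near the top of the lost regions, beside the NF-κB inhibitor gene Nfkbia and the microglial receptor gene Gpr34.
Nfkbia chr12:55480999-55481199: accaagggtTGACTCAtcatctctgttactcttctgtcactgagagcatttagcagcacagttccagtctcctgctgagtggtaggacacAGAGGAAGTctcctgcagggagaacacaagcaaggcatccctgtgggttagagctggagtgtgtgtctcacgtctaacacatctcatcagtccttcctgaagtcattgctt
Gpr34 chrX:13618632-13618832: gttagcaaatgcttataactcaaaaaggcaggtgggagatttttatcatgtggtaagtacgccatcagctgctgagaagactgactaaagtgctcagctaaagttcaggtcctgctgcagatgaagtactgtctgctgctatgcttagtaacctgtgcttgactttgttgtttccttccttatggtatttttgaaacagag
The Nfkbia region held an AP-1 and a PU.1 match, and the Gpr34 region held none of the marked motifs in this window. The last 3 were called in all 4 libraries and had a larger peak area after LPS.
Nfyb chr10:82795458-82795658: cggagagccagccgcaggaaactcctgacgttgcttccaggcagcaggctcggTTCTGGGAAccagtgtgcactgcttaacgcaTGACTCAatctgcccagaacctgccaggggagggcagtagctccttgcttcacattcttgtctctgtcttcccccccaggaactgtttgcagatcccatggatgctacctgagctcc
Tbc1d5 chr17:51477486-51477686: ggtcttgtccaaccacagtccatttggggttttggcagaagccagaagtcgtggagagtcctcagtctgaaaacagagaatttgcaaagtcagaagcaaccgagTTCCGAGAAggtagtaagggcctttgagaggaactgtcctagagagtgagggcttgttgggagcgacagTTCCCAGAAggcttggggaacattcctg
Jak1 chr4:101292062-101292262: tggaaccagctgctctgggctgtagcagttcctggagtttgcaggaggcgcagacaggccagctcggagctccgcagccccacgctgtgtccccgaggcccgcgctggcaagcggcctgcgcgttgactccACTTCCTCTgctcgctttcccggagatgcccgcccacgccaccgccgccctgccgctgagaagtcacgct
Nfyb held an AP-1 and a STAT match, Tbc1d5 held 2 STAT matches, and Jak1 a PU.1 match. A match is a description of the letters, and binding was not measured.

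The deposited lists differed in length before any region was compared. LPS replicates 1 and 2 held 35139 and 37160 peaks, and PBS replicates 1 and 2 held 39064 and 41501. They covered 16.1 and 18.6 Mb after LPS and 19.9 and 21.2 Mb after PBS, and 36.2%, 34.1%, 33.6% and 32.3% of their peaks lay within 1 kb of a transcription start site (TSS). The groups did not overlap in any of these, and the exact permutation test (two-sided) gave p = 0.33 for each, the smallest that 2 against 2 libraries allow. Read counts were not used here, so depth is unknown, and its part in the shorter LPS lists was not tested.

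The peaks carried microglial marks in all 4 libraries. Of 31 genes of homeostatic microglia, 24 and 27 had a promoter peak after LPS and 28 and 28 after PBS, and P2ry12, Tmem119, Cx3cr1, Csf1r and Trem2 were among them in each. Of 15 granulocyte markers, 3 and 2 had one after LPS and 2 and 2 after PBS, and of 16 markers of monocytes and other macrophages, 1 and 1 after LPS and 3 and 3 after PBS. Promoter peaks stood at 5 of 13 oligodendrocyte markers in each library (Cnp, Mbp, Mog, Myrf and Pdgfra). For 13 endothelial markers the counts were 3 and 2 after LPS and 2 and 4 after PBS, and for 13 astrocyte markers 1 and 1, and 2 and 3. Of 14 neuron and 20 lymphocyte markers, 1 each had a peak in every library. In pooled cells, a change in the mix of cells and a change within cells cannot be told apart. The homeostatic promoters without a call in LPS replicate 1 but with one in both PBS lists were Crybb1, Golm1, Gpr34 and Upk1b.

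In peak area, the 24-month LPS libraries differed more from each other than the replicates of any other group. In list length the 14-month LPS replicates lay further apart, at 36699 and 28578 peaks. Over 24198 regions called in all 12 libraries, the median absolute log2 difference in peak area between the 24-month LPS replicates was 0.16, against 0.098 to 0.127 for the replicates of the other 5 groups, and 11.7% of regions differed by more than 0.5, against 1.80% to 5.73%. The Jaccard index (regions called in both lists over regions called in either) of the LPS pair was 0.792 and that of the PBS pair 0.866. It was not taken for the pairs of the other ages. LPS replicate 1 had an index of 0.78 and 0.76 with the PBS libraries, and LPS replicate 2 had 0.83 and 0.81, so the list of LPS replicate 2 overlapped the PBS lists more than that of its own replicate. For this reason each LPS library is also given separately below.

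After LPS, 290 regions were gained, 0.647% of the merged regions, and 2167 were lost, 4.83%. Much of this imbalance moved with list length. When each list was cut to its 35139 peaks of highest area, 687 of 40789 regions were gained (1.68%) and 903 were lost (2.21%). Of the 290 gained regions 222 (76.6%) were also gained at equal length, and of the 2167 lost regions 684 (31.6%) were also lost. Against the PBS pair, LPS replicate 1 alone gained 1285 and lost 5364 regions, and LPS replicate 2 alone gained 1271 and lost 3420. Of all merged regions, 30219 (67.4%) were called in all 4 libraries.

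Both sets were made of small peaks. Peak area, the score by which peaks were ranked, was expressed as a percentile within its own list. Gained regions stood at a median percentile of 19.8 in LPS replicate 1 and 13.4 in LPS replicate 2, and lost regions at 11.1 and 14.5 in the PBS replicates. The median width was 301 bp for gained and 284 bp for lost regions, against 437 bp for all merged regions. Promoters (within 1 kb of a TSS) held 12.1% of gained and 16.9% of lost regions against 30.3% of all, and first introns held 27.9%, 17.5% and 17.7%. Among the regions called in 1 to 3 of the 4 libraries, a closer background because gained and lost regions are never called in all 4, promoters made up 14.0% and first introns 21.4%. The median distance to the nearest protein-coding TSS was 18.4 kb for gained, 16.3 kb for lost and 9.57 kb for all regions.

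The 10 gained regions of highest rank within 100 kb of a gene lay near genes of differing function. The region near Cebpd, which encodes an acute-phase transcription factor of the C/EBP family, lay in an intron of Spidr, 61.1 kb from the Cebpd TSS (chr16:15948242-15948764). It stood at percentiles 45.8 and 65.1 in the LPS lists. The region near Map3k8, which encodes the TLR4 pathway kinase TPL2, lay 19.2 kb inside the gene over a coding exon and stood at percentiles 33.7 and 56.3. Both lay above the median of the gained set in each LPS library.

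The other regions of this rank showed how far the LPS libraries diverged. An intergenic region 18.3 kb from Arid5a, the gene of an RNA-binding protein that stabilises Il6 mRNA (chr1:36325782-36326450), stood at percentile 77.5 in LPS replicate 1 and 14.4 in LPS replicate 2. A region 9.61 kb from B4galt5, a galactosyltransferase gene, stood at 69.3 and 28.3, and an intronic region of Rnf157 (chr11:116377149-116377679) at 71.4 and 41.4. In these 3 the first library was the higher. Regions near Tmc1 (63.0 and 63.8), Hip1 (47.3 and 46.7) and Tbc1d2b (46.9 and 43.3) were nearly equal in both, the promoter region of Aig1 stood at 59.5 and 38.8, and a first-intron region of the receptor gene Gpr146 at 39.3 and 53.9. All 10 were called in each of the 4 LPS libraries of the other ages and in none of the 4 PBS libraries. The gained region of highest percentile (83.9 and 92.6) lay 357 kb from its nearest protein-coding gene, Setd4, and was left out of this ranking by the limit of 100 kb.

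Transcription factors of myeloid cells had 11 gained regions of the 533 nearest to them (2.06%), against the 0.647% of all regions. They included 2 at Runx1, one of them 200 kb from the TSS (percentiles 36.4 and 33.7), and single regions at Bach1 (26.0 and 33.7), Etv6 (44.98 and 10.39), Mef2d (27.7 and 22.8) and Tfec (20.2 and 22.7). Negative regulators of signalling had 3 of 315 (0.952%). One lay in the first intron of Ptpn1, which encodes the phosphatase PTP1B of the JAK and STAT pathway (32.3 and 33.4), and 2 lay in an intron of its relative Ptpn2. TLR4 signalling genes had 3 of 171 (1.75%), at Map3k8, at the kinase gene Irak2 (24.7 and 15.6) and 244 kb from the kinase gene Map2k6 (49.7 and 8.22).

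Inflammatory NF-κB target genes had 1 gained region of 217 (0.461%), in an intron of Nfkb1, at percentile 16.0 in LPS replicate 1 and 1.90 in LPS replicate 2. Interferon-response genes had 1 of 100, near Ifitm2, and immediate early genes 1 of 206, 45.9 kb from Fos (21.3 and 2.94). The gained promoter of Mt2, which encodes a metal-binding metallothionein, stood at percentile 69.5 in LPS replicate 1 and 13.5 in LPS replicate 2. Homeostatic genes had 3 of 280 (1.07%), 1 in the first intron of Selplg (35.1 and 44.5) and 2 near Fcrls. Genes of TGF-β signalling had 3 of 208, at Tgfbr2, Nrros and Smad3, and genes of the glucocorticoid response 2 of 182, at Mt2 and at 69.0 kb from the glucocorticoid receptor gene Nr3c1 (24.9 and 23.7). Of the other lists, metal handling had 3 of 79 (3.80%), phagocytosis 4 of 168 (2.38%), disease-associated microglia 2 of 136 (1.47%), lipid handling 1 of 137 (0.730%) and antigen presentation 0 of 88. The 7 marker lists of other cells (endothelial cells, neurons, astrocytes, oligodendrocytes, lymphocytes, granulocytes and the monocyte and macrophage group) had no gained region. They held 20 to 39 regions each, and lists of this size cannot show a share below the 0.647% of all regions.

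Several genes held more than 1 gained region within 100 kb of their TSS. Jdp2, the gene of an AP-1 repressor, held 3 of its 10 regions and Oacyl 3 of its 7. Tnfrsf1a, the gene of the main TNF receptor, held 2 of 6 and Cd93 2 of 6.

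The 10 lost regions of highest rank within 100 kb of a gene also lay near genes of differing function. A region 11.5 kb from the Nfkbia TSS (chr12:55480189-55481598), which stood at percentiles 62.3 and 55.0 in the PBS lists, was called in neither LPS list at 24 months. At the other ages it was called in 3 of 4 LPS and 2 of 4 PBS libraries, so its absence was not shared by the LPS libraries of the series. A pair of neighbouring regions near Fam71a, next to the stress-response factor gene Atf3, stood at 61.3 and 70.2 and at 42.1 and 62.8, and were called in 1 and 0 of the other LPS and in none of the other PBS libraries. Regions near Hivep1 (46.0 and 69.8), Olfr23 (49.9 and 62.7) and Syngr1 (49.96 and 58.7) were called in none of the other LPS libraries, and those near Adi1 (58.3 and 55.3) and Dnase2b (54.04 and 53.7) in 2 of them. The last 2 of the 10 lay near Gpr34 and Siglech and are given with the homeostatic genes. Among lost regions of lower rank at genes of the lists, a region near Fosb (35.6 and 49.7), one near Tnip1, which encodes an A20-binding inhibitor of NF-κB (32.6 and 51.0), and one 3.89 kb from the myeloid factor gene Cebpa (41.5 and 36.9) were called in none of the other LPS libraries and in only 1 other PBS library each.

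Genes of homeostatic microglia lost 13 of 280 regions (4.64%), about the share of all regions (4.83%). A region 13.4 kb from Gpr34 in an intron of Cask (chrX:13618430-13618932) stood at 59.1 and 55.4 in the PBS lists. A region 23.4 kb from Siglech, which encodes a microglial lectin, stood at 46.1 and 62.0. The Gpr34 promoter itself stood at 13.6 and 22.7. Each of these 3 was called in all 4 PBS libraries of the other ages and in none of the 4 LPS libraries, and Gpr34 held 4 lost regions of its 9. The Upk1b promoter (33.0 and 37.7) and 2 regions near Rhob were also lost.

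Genes of TGF-β signalling lost 11 of 208 regions (5.29%) and those of the glucocorticoid response 9 of 182 (4.95%), shares near that of all regions. Negative regulators lost 12 of 315 (3.81%), including 2 regions each at Nfkbiz, Tnip1 and Zfp36l1. Inflammatory NF-κB targets lost 3 of 217 (1.38%), at Il1r2, Nfkb1 and Rel. Myeloid transcription factors lost 16 of 533 (3.00%), TLR4 signalling genes 6 of 171 (3.51%), immediate early genes 7 of 206 (3.40%) and interferon-response genes 3 of 100. Lipid handling lost 8 of 137 (5.84%), disease-associated microglia 7 of 136 (5.15%), phagocytosis 4 of 168, metal handling 3 of 79 and antigen presentation 3 of 88. Of the marker lists of other cells, oligodendrocytes lost 4 of 36 (11.1%), endothelial cells 4 of 39 (10.3%), granulocytes 2 of 20 (10%) and neurons 2 of 23 (8.70%). Astrocytes lost 2 of 33 (6.06%), the monocyte and macrophage group 2 of 37 (5.41%) and lymphocytes 1 of 26 (3.85%). The lost TGF-β regions included the promoter of the repressor gene Tgif1 (40.3 and 17.96) and an intronic region of the repressor gene Ski (28.6 and 22.4). The largest number for 1 gene was 5 of 25 at Bach2.

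Regions near the genes that the study called raised by LPS at 24 months in its own RNA data were gained at 65 of 4872 (1.33%) and lost at 151 (3.10%), against 0.647% and 4.83% of all regions. Those near its lowered genes were gained at 5 of 1642 (0.305%) and lost at 88 (5.36%, near the share of all regions). Both lists were chosen by the study from the same kind of animals and are no independent evidence of direction.

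The 8 libraries of 3 and 14 months, which the rule did not use, allowed the 24-month regions to be looked up in separate pools. Gained regions were called in a mean of 81.4% ± 18.5 (SD, n = 4) of cases in the other LPS libraries (54.8% to 95.9%) and 12.9% ± 5.83 in the other PBS libraries (7.24% to 18.6%). The treatments did not overlap. Over all merged regions the means were 75.6% and 79.2%. Lost regions were called in 19.2% ± 11.8 (2.31% to 29.1%) of the other LPS and 45.2% ± 15.7 (30.3% to 66.4%) of the other PBS libraries, again without overlap but at low levels in both. Of the gained regions 129 of 290 were called in all 4 other LPS and no other PBS library, and of the lost regions 132 of 2167 showed the reverse. With all 12 lists cut to the length of the shortest, 28578 peaks, the means were 56.0% and 0.862% for gained and 1.51% and 7.07% for lost regions. The plot of these shares by library shows the separation for the gained set.

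**Figure D1:**
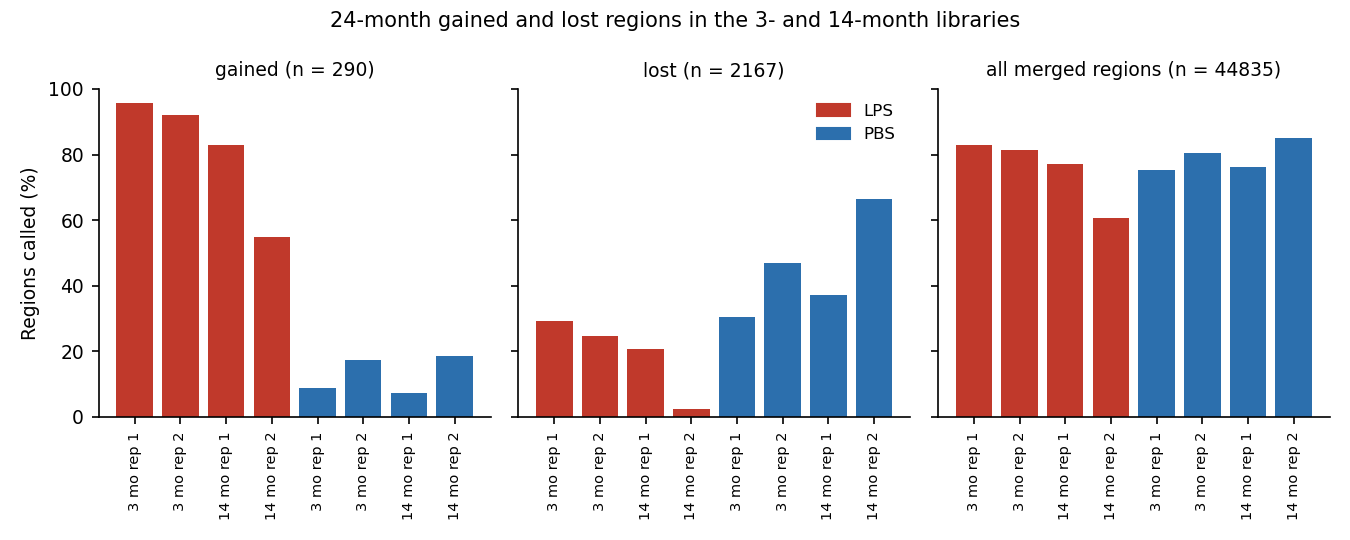
Share of 24-month gained, lost and all merged regions (y axis, percent) that overlapped a peak in each of the 8 libraries of 3 and 14 months (x axis), with LPS and PBS libraries in separate colours. Gained regions were called in 54.8% to 95.9% of cases in the LPS libraries and in 7.24% to 18.6% in the PBS libraries.

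Taken one at a time, the LPS libraries gave different answers. The 995 regions called in LPS replicate 1 and in no other 24-month library were called on average in 43.7% of cases in the other LPS libraries (21.5% to 57.5%) and in 1.61% in the other PBS libraries (0.503% to 2.81%). The 981 regions called only in LPS replicate 2 were called in 29.0% (5.81% to 49.1%) and 31.2% (18.04% to 41.59%). The regions of the first library were called mainly in LPS libraries at other ages, and those of the second about as often after PBS. AP-1 letters stood in 47.4% of the first set and 10.6% of the second, and NF-κB letters in 12.8% and 4.38%, whereas STAT letters differed less, at 14.6% and 12.2%. Among the regions called in 1 to 3 of the 4 libraries, AP-1 stood in 14.0%, NF-κB in 9.14% and STAT in 9.30%. The comparison of the 2 libraries was added after the data had been seen.

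Motif letters within 150 bp of the summit stood at different shares in gained and lost regions. AP-1 was found in 95 of 290 gained regions (32.8%), 7.57% of lost and 12.6% of all regions. STAT was found in 24.8%, 7.71% and 8.58%, and C/EBP in 20.0%, 11.6% and 12.99%. The STAT share of gained regions was lower in each alternative: 16.7% with lists of equal length, and 19.7% and 17.1% without PBS replicate 1 or 2. Within 75 bp of the summit it was 14.8%, against 4.12% of all regions. At least 1 of AP-1, STAT and C/EBP stood in 62.1% of gained, 24.9% of lost and 30.0% of all regions, while AP-1 and STAT together stood in only 4.14% of gained regions. The regions called in 1 to 3 libraries held AP-1 in 14.0%, STAT in 9.30% and C/EBP in 14.5%.

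NF-κB is the central factor of the TLR4 pathway. The NF-κB site was found in 4.83% of gained, 9.23% of lost and 10.2% of all regions, PU.1 in 3.45%, 5.95% and 5.10%, IRF (GAAANNGAAA) in 4.83%, 5.45% and 4.71%, and KLF/SP1 (GGGGCGGGG) in 0.690%, 3.46% and 7.90%. In the closer background of regions called in 1 to 3 libraries, NF-κB stood in 9.14%, PU.1 in 4.92% and KLF/SP1 in 2.91%. The NF-κB share of gained regions depended on LPS replicate 2: without that library it was 10.97% of 1285 regions, and without LPS replicate 1 it was 4.48% of 1271. The RUNX letters (TGTGGTT) stood in 10.7%, 9.28% and 7.83%. The remaining motifs searched were CRE (TGACGTCA), the glucocorticoid response element (GNACANNNTGTNC), MAF (TGCTGAC), SMAD (GTCTAGAC), EGR (GCGTGGGCG), the TFE E-box (GTCACGTGA), NFE2/BACH (TGCTGANTCA, which overlaps AP-1), MEF2 and CTCF. They were each found in less than 9% of gained regions, and MAF was the most frequent at 8.28%.

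Of 114 AP-1 matches in gained regions 63 (55.3%) were within 50 bp of the summit. The shares were 37.9% in lost and 49.0% in all regions, the latter not far from that of gained regions. For C/EBP they were 53.2% in gained, 29.6% in lost and 36.8% in all regions. For the STAT letters they were 33.8%, 21.6% and 27.7%. Without LPS replicate 2, AP-1 stood in 44.1% and STAT in 16.9% of the 1285 gained regions, and without LPS replicate 1 in 15.7% and 15.1% of the 1271. The plot of motif shares sets the gained and lost sets beside all regions.

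**Figure D2:**
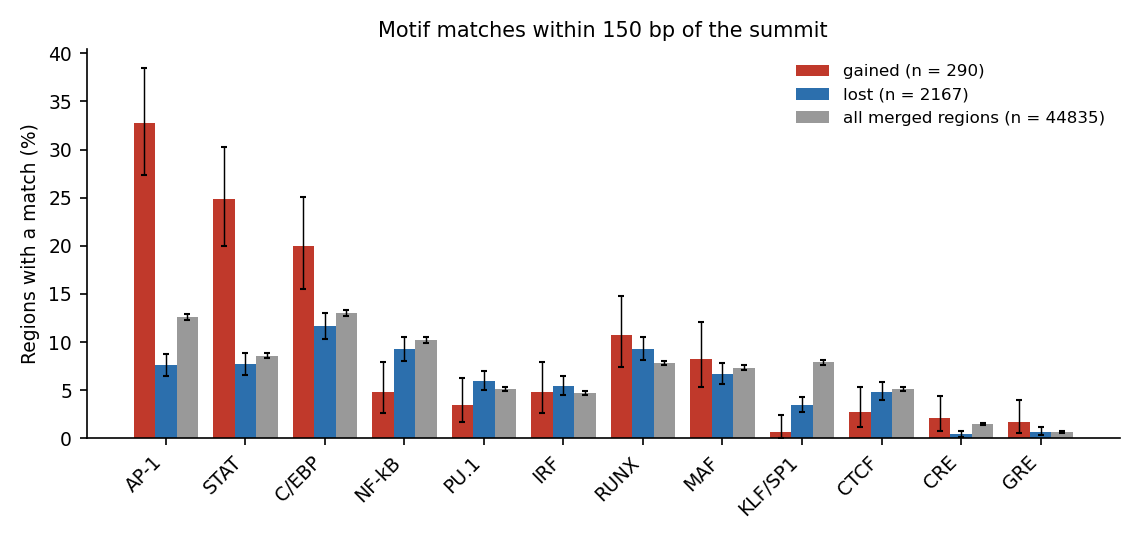
Share of regions (y axis, percent) with each motif shown (x axis) within 150 bp of the summit, for gained, lost and all merged regions, with 95% exact binomial intervals. AP-1 stood in 32.8% of gained regions against 12.6% of all, STAT in 24.8% against 8.58%, and NF-κB in 4.83% against 10.2%, a share that was 10.97% without LPS replicate 2. The STAT share of gained regions was 14.8% to 19.7% in the alternatives.

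Peak area was then compared in the 30219 regions called in all 4 libraries, a measure the presence rule does not use. Areas were quantile normalized and tested on the log2 scale with limma and the Benjamini-Hochberg adjustment. After LPS, 6 regions were higher (0.0199% of those tested) and 1 was lower (0.00331%), and 1664 and 1496 had an unadjusted p under 0.05. Every higher region had LPS values above both PBS values.

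The strongest rise was at an intergenic region 4.19 kb from Arid5a (chr1:36303268-36304069), with areas of 1844 and 1522 after LPS and 331 and 291 after PBS, a log2 difference of 2.43 ± 0.18 (SE, limma adjusted p = 0.0325). A region 31.4 kb from Nfyb, a subunit gene of the CCAAT-binding factor NF-Y, overlapped Hcfc2. It had 1963 and 1971 against 400 and 484 (2.16 ± 0.14, limma adjusted p = 0.0277). An intronic region 16.5 kb inside Map3k8 had 2617 and 2405 against 528 and 659 (2.09 ± 0.14). In these 3 the LPS libraries stood close to each other and well above PBS.

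The other 3 changed less. An intergenic region whose nearest TSS was that of Tbc1d5, 298 kb away (chr17:51477129-51478183), had 2280 and 2341 against 887 and 907 (1.37 ± 0.08). A region in an intron of Armc9, 39.5 kb from B3gnt7, had 2403 and 2273 against 1024 and 933 (1.26 ± 0.09). A region 26.9 kb from Jak1, which encodes a kinase of cytokine receptors that activates the STAT factors (chr4:101291952-101293670), had 3630 and 3817 against 2216 and 2282 (0.73 ± 0.06, limma adjusted p = 0.0486).

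Next by p came regions that missed the threshold. They were 5.71 kb from Socs3, the STAT3 feedback inhibitor gene (7160 and 6179 against 2891 and 3325, limma adjusted p = 0.0617), near the stress gene Gadd45g (2045 and 2030 against 1072 and 996, 0.0773), at the Trim30c promoter (1828 and 1555 against 366 and 482, 0.0810) and near the NF-κB co-factor gene Bcl3 (2383 and 2212 against 1289 and 1302, 0.0891).

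The 1 region that was lower lay 24.6 kb from the Zswim4 TSS (chr8:84208664-84215459). It overlapped Zswim4 itself and the microRNA genes Mir27a, Mir24-2 and Mir3074-2. Its areas were 1098 and 810 after LPS and 4700 and 4898 after PBS (log2 difference -2.35 ± 0.14, limma adjusted p = 0.0277). Peaks covered 1876 and 864 bp of it after LPS and 6622 and 6674 bp after PBS, so the covered length was shorter along with the area. The next regions, which missed the threshold, were in the first intron of Gse1 (2084 and 2043 against 2988 and 3128), at the Gnas promoter (1644 and 1711 against 2570 and 2857) and near Sec14l2 (890 and 907 against 1592 and 1593). When area was divided by covered length, the difference at the Zswim4 region was -0.02 and no region passed in either direction with limma (unadjusted 1453 and 974), nor did any on the percentile scale (1646 and 1479) or without the variance trend (1749 and 1404). None passed when PBS replicate 1 or 2 was left out (unadjusted 620 and 425, and 711 and 280), while leaving out LPS replicate 1 or 2 gave 969 and 2202 higher and 1231 and 2284 lower regions, with the lone LPS library assumed to vary like the PBS pair.

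**Figure D3:**
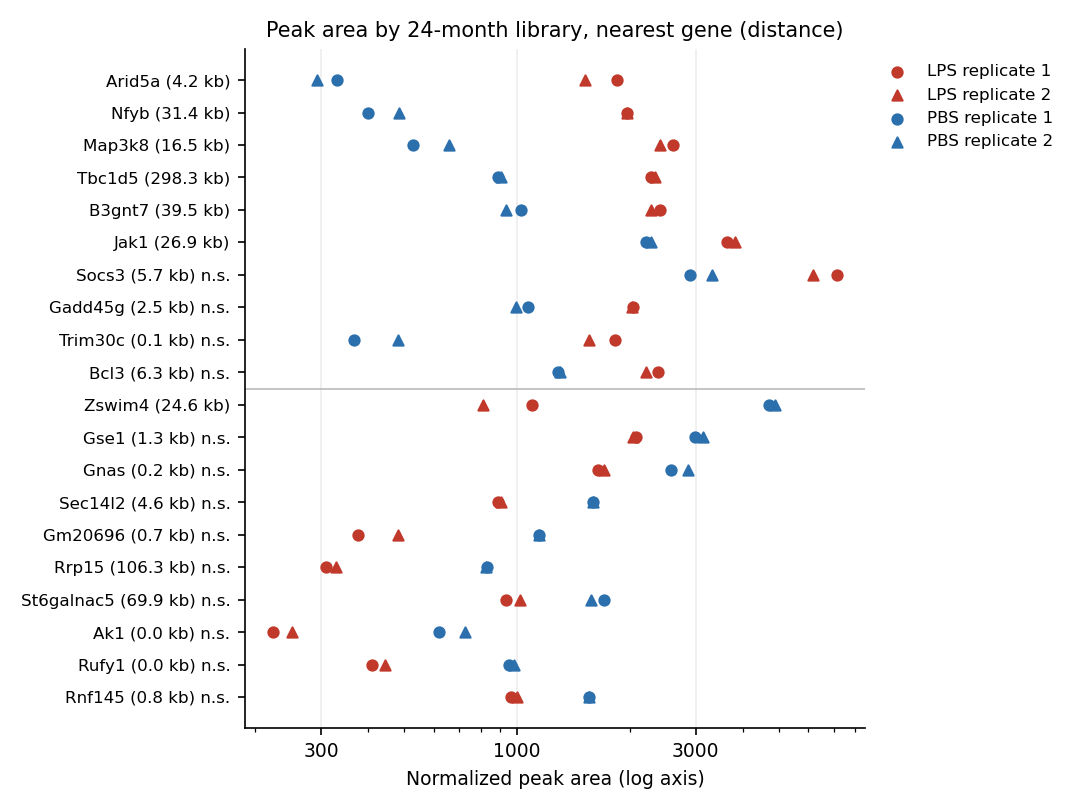
Normalized peak area (x axis, log scale) in the 4 libraries of 24 months for the 10 highest-ranked regions in each direction (y axis, nearest gene), with 1 point per library. LPS and PBS points did not overlap for any of these regions, and only the first 6 higher regions and the Zswim4 region passed the test.

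Promoters of 19 genes were examined whatever their values. After LPS, 6 had areas above both PBS libraries in both LPS libraries: Socs3 (5080 and 5841 against 3395 and 3465), Cebpb (3787 and 3904 against 2752 and 2675), Cebpd (3157 and 3735 against 2787 and 2706), Il1rn, which encodes the interleukin-1 receptor antagonist (907 and 572 against 449 and 400), Fos (4143 and 3882 against 3567 and 3161) and Myd88 (1002 and 1071 against 899 and 821). None passed the test over 30219 regions, the nearest being Cebpb (0.50 ± 0.05, limma adjusted p = 0.0913) and Socs3 (0.67 ± 0.07, 0.0930). Per covered bp these differences were -0.002 and -0.05, so their sign did not hold on that scale. In the fit over 12 libraries described below, the promoters of Socs3, Cebpb and Cebpd passed.

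For most other promoters the groups overlapped. Tnf, a main inflammatory cytokine gene, had 2667 and 1726 after LPS and 2617 and 2430 after PBS, with LPS replicate 2 the lowest of the 4. Nfkbia had 6008 and 5309 against 5484 and 5309, Irf1 2898 and 2642 against 2675 and 2748, and the receptor gene Tlr4 1941 and 2437 against 1979 and 2044. Among microglial identity genes, Cx3cr1 had 1504 and 1995 against 1856 and 1863, Mef2c 747 and 1183 against 1087 and 1088, Tmem119 1246 and 1583 against 1292 and 1489, and P2ry12 636 and 411 against 520 and 579. For Cx3cr1, Mef2c and Tmem119 LPS replicate 1 was the lowest of the 4 libraries and LPS replicate 2 the highest. Csf1r, Spi1 and Junb also overlapped. The region at Sall1, a gene that defines microglial identity, had 3054 and 4583 against 4654 and 4774 and was lower in both LPS libraries without passing (limma adjusted p = 0.574). Its summit, like that of Junb, lay more than 1 kb from the TSS. No region was called within 1 kb of the Il1b TSS.

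A fit over all 12 libraries, which shares 1 estimate of the spread, found more. The 24-month LPS replicates had the widest spread of any group (median absolute log2 difference 0.16, against 0.098 to 0.127). The shared estimate can therefore be too small for the 24-month LPS effect and for its difference from the other ages, and can add calls. Of 24198 regions called in every library, 435 were higher after LPS at 24 months (1.80%) and 109 were lower (0.450%). At 3 months 2142 were higher and 1792 lower, and at 14 months 3076 and 3010. Of the 435 higher regions 371 were also called higher at 3 months and 385 at 14 months, and 24 at neither. Of the 109 lower regions 63 and 74 were called lower, 23 at neither, and 1 changed in the opposite direction. Leaving out a library leaves 1 in its group, which is then assumed to vary like the other groups. Without PBS replicate 1 only 83 higher and 12 lower regions were left, without PBS replicate 2 148 and 7, and without LPS replicate 2 979 and 775 were called.

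The list of negative regulators had one of the larger shares of higher regions. Of its 162 regions 18 were higher and 0 lower (11.1%, beside 1.80% of all regions). They lay at Socs3 (6 regions), Bcl3 (4), Ptpn1, Ier3, Cish and Zc3h12a, so Socs3 and Bcl3 held most of them. The Cish promoter had areas of 2242 and 1455 against 981 and 1062 (0.82 ± 0.18, limma adjusted p = 0.0371), and the Ier3 promoter 3007 and 2438 against 1457 and 1456 (0.89 ± 0.13, 0.00447). LPS replicate 1 was the higher library in both.

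Myeloid transcription factors had 15 higher and 1 lower of 259 (5.79% and 0.386%). An intronic region 69.3 kb from Cebpd had 891 and 817 against 411 and 408 (1.06 ± 0.13, limma adjusted p = 0.00170). A first-intron region 2.30 kb from Spi1, the PU.1 gene, had 565 and 518 against 271 and 266 (1.01 ± 0.16, 0.00683). Another 5 regions near Cebpb, 2 at Runx1, 2 at Bach1 and the Stat3 promoter were among the others, and the lower one lay near Batf3. The LPS and PBS values did not overlap in the regions given.

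Inflammatory NF-κB targets had 6 higher and 0 lower of 105 (5.71%): Il12a, Il12b, 2 regions near the chemokine gene Ccl5, and the promoters of Plaur and Ccl12. The region 13.4 kb from Il12a, a subunit gene of interleukin-12, had 1352 and 1172 against 573 and 590 (1.12 ± 0.16, limma adjusted p = 0.00385). Homeostatic genes had 7 higher and 1 lower of 155 (4.52% and 0.645%). The Trem2 promoter, of a lipid-sensing microglial receptor, had 729 and 1052 against 416 and 491 (0.95 ± 0.20, 0.0315), and the one lower region was an Adgrg1 intron (715 and 511 against 844 and 1076).

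Genes of metal handling had 5 higher of 45 (11.1%), at the iron storage gene Fth1, at Mt1, at the haem oxygenase gene Hmox1 and at Bach1. Disease-associated microglia genes had 5 of 67 (7.46%) and phagocytosis genes 5 of 99 (5.05%). TLR4 signalling genes had 3 higher and 1 lower of 94 (3.19% and 1.06%), and the lower one was at Traf3. The glucocorticoid response had 3 higher of 90 (3.33%) and TGF-β signalling 2 higher and 1 lower of 110 (1.82% and 0.909%). The interferon response had 1 higher of 57 (1.75%), the Stat2 promoter. Immediate early genes had 2 higher and 2 lower of 127 (1.57% each). The lower regions were both at Fosb, 1 with areas of 331 and 435 against 1258 and 862 (-1.46 ± 0.29, limma adjusted p = 0.0231), and the higher lay near Fosl2 and Jun. Antigen presentation (56 regions), lipid handling (79) and the 7 marker lists of other cell types (8 to 20 regions each) had 0 of either. Genes raised in the study's RNA data had 166 higher and 3 lower of 2740 (6.06% and 0.109%). Its lowered genes had 11 and 9 of 969 (1.14% and 0.929%). Over all regions tested the shares were 1.80% higher and 0.450% lower, so several of these lists lay near them.

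Socs3 held more higher regions than any other gene, 6 of its 8 within 100 kb, with log2 differences of 0.24 to 1.28. Bcl3 held 4 of 5, Cebpb 4 of 11, Gcnt2 4 of 10, Sbno2 3 of 3, Ier3 3 of 4 and the interleukin-4 receptor gene Il4ra 3 of 4. Within 100 kb of the Socs3 TSS 19 regions were tested, of which 10 were higher and 0 lower. The Socs3 promoter had 4669 and 5325 against 3087 and 3149 (0.68 ± 0.07, limma adjusted p = 0.000359), and the region 19.7 kb from it had 1638 and 2038 against 711 and 794 (1.28 ± 0.13, 0.000386). At this locus LPS replicate 2 was as high as LPS replicate 1 or higher in several regions.

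**Figure D4:**
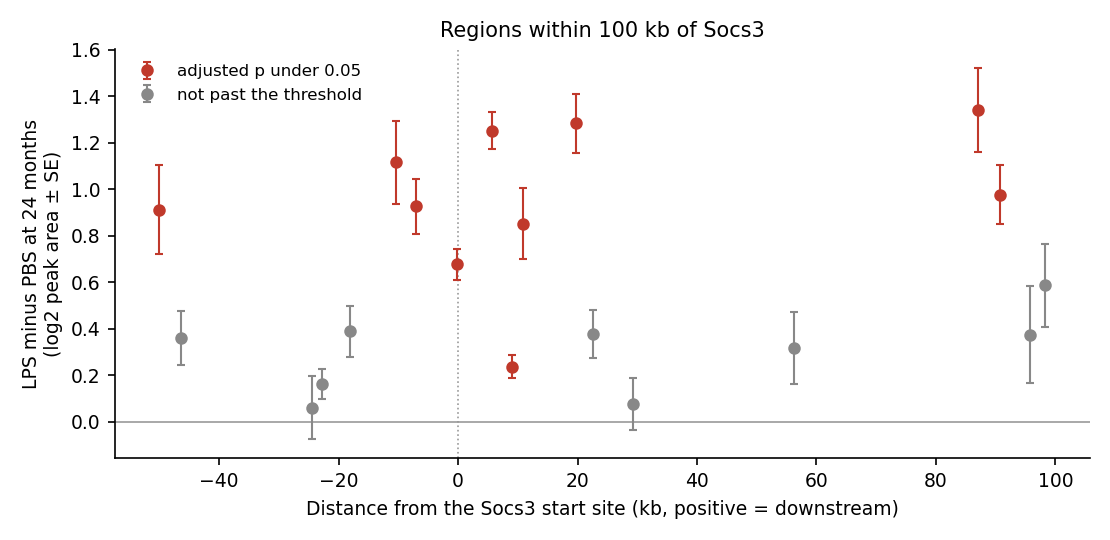
Log2 difference in peak area, LPS minus PBS (y axis, with standard errors), at 24 months for the 19 regions within 100 kb of the Socs3 TSS (x axis, distance in kb). At 24 months 10 regions were higher after LPS and 0 lower, with the promoter at 0.68.

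AP-1 stood in 28.0% of the 435 higher, 8.26% of the 109 lower and 11.7% of all regions tested, STAT in 28.5%, 5.50% and 8.23%, and C/EBP in 24.1%, 15.6% and 12.1%. NF-κB letters stood in 7.82%, 19.3% and 11.3%. Promoters made up 15.4% of the higher, 26.6% of the lower and 42.1% of all regions tested.

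To see the size of the response in each 24-month library, the regions called at both younger ages were followed. They were chosen by the effects at those ages. The 24-month libraries still entered the choice through the fit, which held only regions called in all 12 libraries. It also normalized the libraries together and shared 1 estimate of the spread. The 1683 regions that were higher at both 3 and 14 months had median log2 differences of 0.72 and 0.79 at those ages and 0.31 at 24 months. In LPS replicate 1 alone the median above the PBS mean was 0.48, with 97.9% of the regions above 0, and in LPS replicate 2 it was 0.18, with 74.6% above 0. The 920 regions lower at both ages had medians of -0.59 and -0.59, and of -0.35 and -0.10 in the LPS replicates at 24 months. Over all 24198 regions the medians of the LPS libraries were -0.003 and 0.002. Since the regions were chosen for a large effect at the younger ages, their values there are raised by the choice, and the fall to 24 months is not read as a smaller response.

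**Figure D5:**
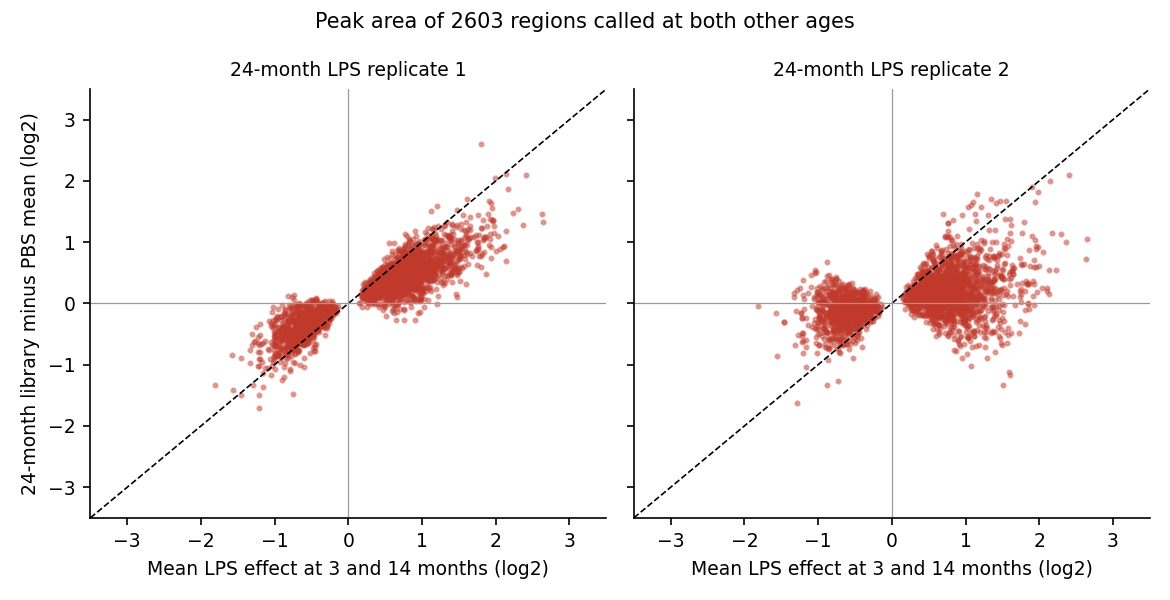
Log2 difference in peak area above or below the PBS mean (y axis) in each 24-month LPS library, against the mean LPS effect at 3 and 14 months (x axis), for the 1683 regions higher and 920 lower at both younger ages. LPS replicate 1 followed the younger ages in direction in 97.9% of the higher regions and LPS replicate 2 in 74.6%.

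Among the 1683 regions, those with STAT letters (261) had a median of 0.59 in LPS replicate 1 and 0.31 in LPS replicate 2, with 82.4% above 0 in the second. Those with NF-κB letters (217) had 0.42 and 0.084, with 63.1% above 0, although their median at the younger ages, 0.70, was close to that of all, 0.77. Other letters stood low in LPS replicate 2 as well, with medians of 0.0839 for MEF2 (23 regions), 0.0911 for KLF/SP1 (99), 0.116 for CRE (33) and 0.126 for CTCF (30), and for IRF (113) 65.5% were above 0. By gene list, the 42 regions at negative regulators had 0.48 and 0.29, the 36 at myeloid transcription factors 0.51 and 0.27, and the 30 at inflammatory NF-κB targets 0.54 and 0.081. In LPS replicate 2 the shares above 0 were 78.6%, 91.7% and 70.0%, against 74.6% for all 1683. The lists were compared after the data had been seen and with 1 library on each side, so no test was made.

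Single regions at inflammatory NF-κB targets varied in LPS replicate 2. The Tnf promoter had effects of 0.82 at 3 and 1.25 at 14 months, and stood 0.08 above the PBS mean in LPS replicate 1 and -0.55 from it in LPS replicate 2. A region 28.5 kb from Il1a, the interleukin-1α gene, had 1.94 and 1.69, then 0.80 and -0.34. The promoter of the chemokine gene Cxcl2 had 1.59 and 2.10, then 1.05 and 0.01, and that of Ccl3 0.59 and 0.65, then 0.37 and -0.11. In each of these 4, chosen after their values were seen, the first library stood above the PBS mean and the second close to it or below. Most of the list stood above 0 in the second library, among them the Plaur promoter (0.78 and 0.49), the regions near Ccl5 (0.87 and 0.45, 0.76 and 0.48), one near Il12b (0.94 and 0.57) and one near Cd83 (0.77 and 0.44).

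Other regions were raised alike in both libraries. The Socs3 promoter had 0.74 and 0.57 at the younger ages and 0.58 and 0.77 in the LPS replicates at 24 months. A region at Bcl3, 6.26 kb from its TSS, had 0.98 and 0.76, then 0.87 and 0.77. A region 117 kb from Ptpn1 had 0.94 and 0.94, then 0.98 and 0.77, and the region 13.4 kb from Il12a had 1.25 and 1.26, then 1.22 and 1.01. The feedback list had exceptions too, since a region 12.7 kb from Atf3 had 0.62 and 0.67, then 0.08 and -0.35, and the promoter of Tnfaip3, which encodes A20, had 0.32 and 0.28, then 0.02 and -0.23.

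Whether the LPS effect itself differed between ages was tested as a difference of effects in the same fit. Against 3 months, 0 regions had a more positive and 1 a less positive effect at 24 months (limma, unadjusted 1485 and 1700), and against 14 months 0 and 0 (unadjusted 1710 and 1935). The 1 region lay in the first intron of Myo1e, an unconventional myosin gene, 77.4 kb from the TSS (chr9:70284356-70285281). At 3 months it had areas of 2184 and 2350 after LPS and 381 and 363 after PBS, at 14 months 2263 and 2203 against 492 and 534, and at 24 months 2089 and 1715 against 897 and 825. LPS stood above PBS at each age, and the PBS libraries of 24 months stood above those of the other ages. The effects were 2.61, 2.12 and 1.14, and the 24-month effect differed from that at 3 months by -1.47 ± 0.15 (limma adjusted p = 0.00795) and from that at 14 months by -0.99 ± 0.15 (0.0690). The difference from 3 months missed the threshold without 3month LPS replicate 1 (-1.53), 3month LPS replicate 2 (-1.42), 3month PBS replicate 1 (-1.50) or 24month PBS replicate 1 (-1.40).

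The count of differing regions changed with the measure and with single libraries. In a fit without 1 library, its group holds a single library, assumed to vary like the other groups. For 24-month LPS this takes the widest spread out of the estimate, so those counts are not read as age differences. With summit significance in place of area it was 3 and 15 against 3 months and 58 and 275 against 14 months, and without 14month LPS replicate 1 it was 146 and 30 against 14 months. Without LPS replicate 1 of 24 months, the difference was positive at 855 and negative at 1218 regions against 3 months, and 1076 and 1579 against 14 months. Without LPS replicate 2 the counts were 1 and 5, and 1 and 1. For the Tnf promoter the difference was -1.05 ± 0.28 against 3 months and -1.48 ± 0.28 against 14 months, and neither passed (limma adjusted p = 0.211 and 0.0970). Nor did it pass for the promoters of Cx3cr1 (0.41 ± 0.14, limma adjusted p = 0.288 against 3 months) and Tmem119 (0.48 ± 0.15, 0.258), which were lower after LPS at 3 months (-0.51 and -0.46, limma adjusted p = 0.00578 and 0.0130) and had effects of -0.10 and 0.02 at 24 months.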

How the data were processed

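ATAC-seq peak lists of 12 libraries (2 per age and treatment) were used, grouped by the sample titles. Per the study's methods, the authors trimmed reads with cutadapt 2.8, aligned them to mm10 with Bowtie2 2.4.1 and removed duplicate, mitochondrial and blacklisted reads. They called peaks with Genrich, and the methods do not say whether each library was called separately. The version of Genrich, and whether read ends were shifted for the Tn5 offset, is not given in the sources used here. In the deposited lists, peak area is a score for which the authors' caller summed significance over the peak, without normalization between libraries. The deposited summit significance is a −log10 p value, not adjusted for multiple tests, and was used only in an alternative. The lists were assumed to be called separately for each library, so a region missing from a list may be open below the caller's threshold.

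The peaks were merged with pandas 2.3.3 and numpy 2.4.6 under Python 3.11.15, on chromosomes 1 to 19, X and Y. Each region was assigned to the nearest protein-coding TSS of the reference annotation of GRCm38, and promoters lay within 1 kb of any TSS. Sequences were read from GRCm38 with pysam 0.24.0. Motifs (17 searched) were searched within 150 bp of each summit on both strands. Peak areas were summed per region, quantile normalized on the log2 scale and tested with limma 3.58.1 (trended variance) in R 4.3.3, with the Benjamini-Hochberg adjustment at 0.05 over all regions tested. The fit was tested on simulated data. Exact tests used scipy 1.17.1, and binomial intervals (95%, Clopper-Pearson) cover counting error only.

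The gained and lost sets, the gene lists and the motifs were chosen with earlier results of these data known. Named regions were the 10 gained and 10 lost regions of highest mean percentile within 100 kb of a gene, up to 8 per direction for each of the gene lists of microglial identity, signalling and transcription, the 10 regions per direction of the area test (by size of difference among those that passed, then by unadjusted p) and 19 promoters fixed by name. Alternatives were other list lengths, merging by summits, an area floor, normalizations and scales, a promoter of 3 kb, motifs within 75 bp, the replicate block and leaving out each library. The replicate numbers were checked for pairing and did not pair the samples. Replicate numbers are those of the sample titles.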

Additional observations from a re-analysis of the deposited data

Results flagged for a closer look

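The region in the first intron of Myo1e was noted because its LPS effect at 24 months differed from that at 3 months by -1.47 ± 0.15 on the log2 scale in a direct test of the difference (limma adjusted p = 0.00795). The effect was positive at each age, at 2.61, 2.12 and 1.14 for 3, 14 and 24 months, and LPS stood above PBS in every library. The difference missed the threshold without 3month LPS replicate 1 (-1.53), 3month LPS replicate 2 (-1.42), 3month PBS replicate 1 (-1.50) or 24month PBS replicate 1 (-1.40), and passed in the other 11 alternatives.

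Of the groups reported, those of 4 libraries were the shares of gained, lost and all merged regions called in the LPS and in the PBS libraries of the other ages, and none held a value that stood apart by Dixon's criterion. Peak areas were compared in groups of 2 and could not be examined in this way.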

How the results depend on the processing

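Depth is unknown, since read counts are not in the lists, and it limits each count of gained and lost regions. With lists of equal length, 687 regions were gained and 903 lost, and for LPS replicate 1 alone 2360 and 2560, for LPS replicate 2 alone 2154 and 2008. Windows around the summits gave 559 gained regions. Leaving out 1 library gave 461 to 1285 gained and 3092 to 5364 lost regions. With all 12 lists at equal length, gained regions were called in 56.0% of the other LPS and 0.862% of the other PBS cases, and lost regions in 1.51% and 7.07%. Leaving out 1 LPS library gave 41.0% to 52.2% and 4.16% to 27.1% for gained, and 32.7% to 37.1% and 43.75% to 67.9% for lost regions, an alternative chosen after seeing the data.

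In the 4-library area test, higher and lower counts were 21 and 1 with median centring, 25 and 1 for summit significance, 0 and 0 each for the percentile scale, area per bp and no variance trend, and 435 and 109 in the 12-library fit, which tested fewer regions with more samples. Leaving out 1 library gave 0 to 2202 higher and 0 to 2284 lower regions. Without PBS replicate 1 none passed and 620 and 425 had an unadjusted p under 0.05, and without PBS replicate 2 none and 711 and 280. The 7 called regions kept their direction in each setting of the 4-library test. Area per bp was not tried in the 12-library fit.

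In the 12-library fit, leaving out 1 library gave 83 to 979 higher and 7 to 775 lower regions at 24 months. For the difference from 3 months it gave 0 to 855 more positive and 0 to 1218 more negative effects, and from 14 months 0 to 1076 and 0 to 1579. Summit significance gave 3 and 15 against 3 months and 58 and 275 against 14 months, and median centring 1 more negative effect against 14 months. Without 14month LPS replicate 1, 146 and 30 differed from 14 months. The cause was not tested. A group left with 1 library was assumed to vary like the other groups, which can add calls for 24-month LPS.

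Replicate numbers did not pair the samples: the correlation of same-numbered deviations at 24 months was -0.029. With the replicate block, 10 regions were higher and 2 lower in the 4-library test, and 322 and 67 in the 12-library fit.

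Some differences near 0 changed sign. Per bp of covered length, values were 0.45 near Gm20696, 0.0225 near St6galnac5, 0.10 near Ak1, and for promoters 0.0722 for Tnf, -0.14 for Nfkbia, -0.0495 for Socs3, -0.0023 for Cebpb, -0.12 for Irf1, -0.15 for Myd88, 0.12 for P2ry12, -0.0391 for Tmem119, 0.28 for Cx3cr1 and -0.0051 for Spi1. Summit significance gave 0.0851 for Tnf, -0.0219 for Irf1 and 0.0276 for Cx3cr1. Leaving out 1 library gave -0.55 to 0.0826 for Tnf, -0.0232 to 0.15 for Nfkbia, -0.0367 to 0.0946 for Irf1, -0.0511 to 0.28 for Tlr4, -0.41 to 0.21 for P2ry12, -0.15 to 0.19 for Tmem119, -0.30 to 0.10 for Cx3cr1, -0.18 to 0.0760 for Csf1r, -0.0496 to 0.12 for Spi1 and -0.54 to 0.12 for Mef2c. None of these promoters passed in the main 4-library test.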

Other observations

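Other regions with large differences in the 12-library fit, chosen after their values were seen, lay outside the lists of inflammatory and microglial genes. After LPS at 24 months the promoter of Trim30c, a member of a family of interferon-inducible proteins, had a higher area by 1.94 ± 0.14 on the log2 scale (limma adjusted p = 3.3e-05), with 1658 and 1413 against 353 and 454. An intron of Klhl2 rose by 1.78 ± 0.25 (755 and 890 against 279 and 203), an intron of Rgl1 by 1.58 ± 0.14 (968 and 952 against 282 and 365) and an intron of Ambp, the gene of the bikunin precursor, by 1.51 ± 0.22 (1888 and 1155 against 480 and 562). All 4 were also higher at 3 and 14 months, by 1.06 to 2.31 and 1.35 to 2.03.

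Among the regions with a lower area was one 30.8 kb from Pmepa1, which encodes an inhibitor of TGF-β signalling (360 and 329 against 761 and 906, -1.27 ± 0.18, limma adjusted p = 0.00387). An intron of Blnk, the gene of a signalling adaptor, had 323 and 313 against 654 and 662 (-1.05 ± 0.21, limma adjusted p = 0.0257), and effects of 0.18 at 3 and -0.95 at 14 months. A region 5.14 kb from Fem1a had 361 and 261 against 644 and 654 (-1.08 ± 0.24, limma adjusted p = 0.0392), and effects of 0.67 and -0.01 at the younger ages. The difference of its effects between 24 and 3 months, -1.75 ± 0.34, did not pass (limma adjusted p = 0.176).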
